A study of Mus musculus with 346 samples.

Results

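Cells of the early mouse liver that carried alpha-fetoprotein RNA were set against pancreatic progenitors of the same stage that carried Pdx1. Both sides came from embryos with a Prox1-EGFP transgene (Tg(Prox1-EGFP), genotype Prox1-GFP in the labels), dissected at embryonic day (E) 10.5 and sorted for green fluorescence, 1 cell to a well. Each cell was sequenced by Smart-seq2, which reads full-length transcripts. The liver cells came from 1 plate (5A) and the dorsal pancreatic bud cells from 2 plates (2A and 2B). All cells compared carry the reporter, and the labels give neither strain nor number of embryos. Since they name no animal, hepatoblasts and progenitors each stand for 1 unreplicated sample. No p-value is therefore given, and each SD is the spread between cells. Organ and plate cannot be told apart between liver and pancreas, while the 2 dorsal plates show how far plates of 1 tissue lie apart.

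The cells were chosen by their own measured values, on the deposited scale of log2(normalized reads + 1). Hepatoblasts are the 46 of 78 cells on plate 5A with Afp of at least 10, and progenitors are the 28 of 86 dorsal cells with Pdx1 of at least 5 and Pyy under 5. Of the progenitors 17 of 48 came from plate 2A and 11 of 38 from plate 2B, so that 74 of the 346 cells of the series are compared. The gap at the Afp limit was wide: the highest cells below it had 1.91, 3.69 and 6.57, and the lowest above it 11.60, 12.80 and 13.07. For Pdx1 the nearest dorsal cell below the limit had 4.18 and the next 0, and the lowest above it had 5.75, 6.20 and 6.63. The rule on Pyy, a hormone gene of early endocrine cells, left out 5 dorsal cells with Pdx1. The levels of Afp, Pdx1 and Pyy are therefore descriptions, and so is every other difference between cells chosen in this way.

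Liver and pancreas both bud from the foregut endoderm, and at this stage Prox1 marks both. Hepatoblasts leave the gut epithelium, invade the surrounding mesenchyme, and later give rise to hepatocytes and bile duct cells. They are known for early secretion of plasma proteins, driven by a network of factors that includes HNF4A, HNF1 and C/EBP proteins. Dorsal pancreatic progenitors stay in a polarized epithelium, carry PDX1 and SOX9, and give rise to duct, exocrine and endocrine cells.

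Other markers of these cell types went with the labels. On GRCm38, with GENCODE M21 gene models, Afp lies at chr5:90490737-90508907, Alb at chr5:90460897-90476602, Apoa2 at chr1:171225054-171226379, Pdx1 at chr5:147269959-147275848 and Sox9 at chr11:112782224-112787760. Apoa2, an apolipoprotein of high density lipoprotein, ran from 12.27 to 15.24 in hepatoblasts, with a median of 13.41, and was 0 in each of the 28 progenitors. Alb, which encodes albumin, was detected (at least 5 normalized reads) in 42 of 46 hepatoblasts (91.3%, exact 95% interval 79.2 to 97.6%) and in 0 of 28 progenitors, which allows a share of up to 10.7%. Sox9, a regulator of pancreatic progenitors, was detected in 28 of 28 progenitors and in 5 of 46 hepatoblasts (10.9%, 3.62 to 23.6%). Prox1 itself was detected in every cell of both sides, at 9.76 to 13.18 in hepatoblasts (median 11.56) and 6.47 to 12.24 in progenitors (median 10.65), and the ranges overlapped. Its mean was 11.52 ± 0.64 (SD, n = 46 cells) in hepatoblasts, 10.62 on plate 2A and 9.47 on plate 2B, and the difference against all progenitors was 1.35 as deposited and 0.13 after median-of-ratios scaling. Intervals and limits cover counting error over cells only. They treat the cells of a side as independent, although each side is 1 unreplicated sample from an unknown number of embryos. The limit for 0 cells follows a separate rule, given with the methods, and lies below the exact upper bound. For 0 of 28 cells these are 10.7% and 12.3%, and for 0 of 46 cells 6.52% and 7.71%. Levels have a further limit, since PCR reads are not independent molecules.

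**Figure D1:**
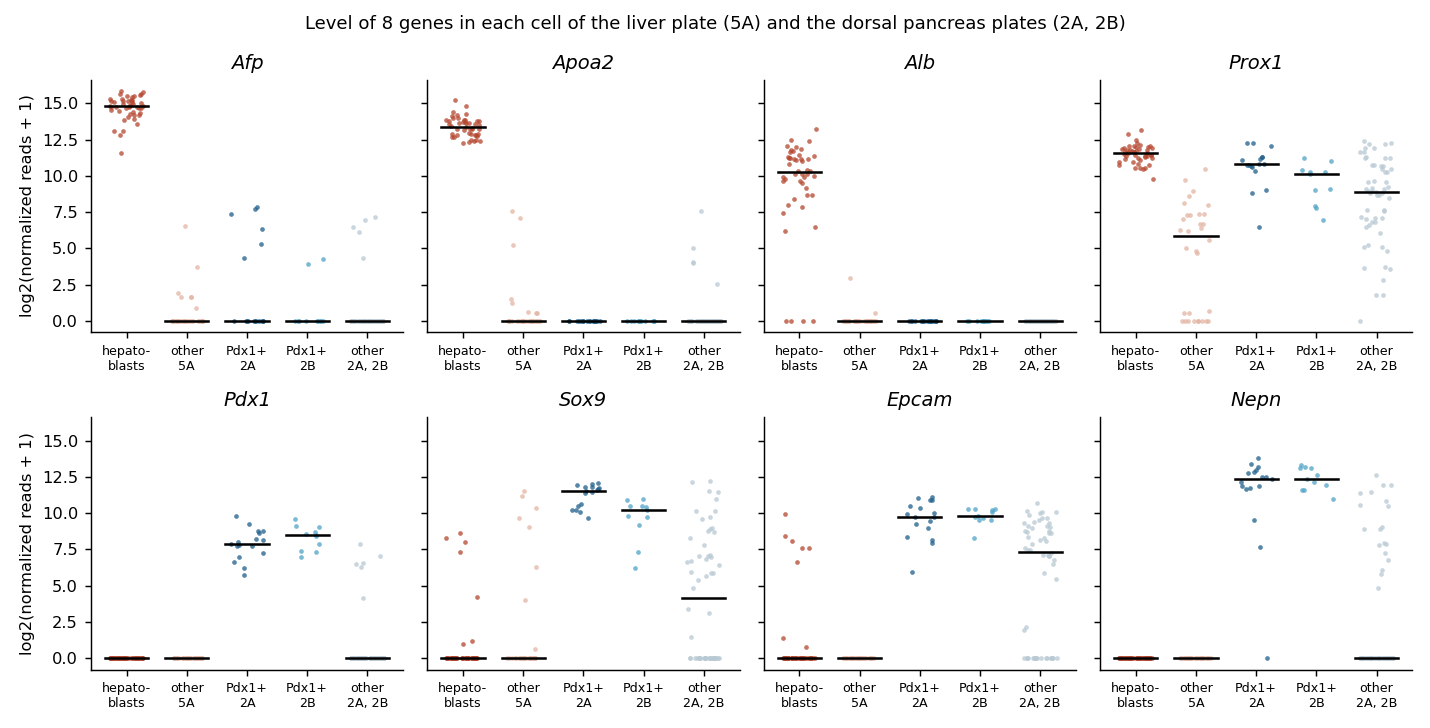
Level of 8 genes, as log2(normalized reads + 1), in each cell of the liver plate and the dorsal plates; each point is 1 cell, and bars are medians over cells. Apoa2 is at or above 12.27 in the 46 hepatoblasts and 0 in the 28 progenitors, Nepn is 0 in all hepatoblasts, and of the 32 remaining cells of plate 5A 3 have Apoa2 and 0 have Epcam.

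The sides differed in depth. Hepatoblasts had 1416104 to 3431728 reads per cell and progenitors 568780 to 1250790, without overlap, while the median number of detected genes was lower in hepatoblasts (3102.5) than in progenitors on plate 2A (4597) and 2B (5160). Mitochondrial reads made up a median of 3.15% in hepatoblasts and 0.924% in progenitors. No cell of either side carried 3 or more markers of erythroid, leukocyte, endothelial, mesenchymal, cardiac or neural cells, the most in any cell being 1 in hepatoblasts and 2 in progenitors, and the haemoglobin genes Hba-a1 and Hba-a2 were 0 in all of them. The summed log2 level of the mesenchyme markers ran from 0 to 7.52 in hepatoblasts and 0 to 8.09 in progenitors, and that of the cardiac markers from 0 to 10.60 and 0 to 12.37. At least 3 such markers were found in 26 of the 32 remaining liver-plate cells and in 19 of the 58 remaining dorsal cells. With each cell thinned to 500000 reads, the counts given below (409 genes higher, 1292 lower) came to 407 and 1305.

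The promoters of some plasma protein genes that were higher in hepatoblasts hold recognition letters of liver factors. Of these 4 are shown, picked because they hold a match, beside 2 genes higher in progenitors. They are the 180 bases before the start site as RefSeq lists it on GRCm38.p6, 5′ to 3′ on the gene's strand. Capitals mark matches to the HNF1 motif GTTAATNAT or the C/EBP motif TTGCNNAA on either strand. The regions are chr5:90460690-90460869 (plus strand) for Alb, chr5:90490534-90490713 (plus strand) for Afp, chr3:83049864-83050043 (minus strand) for Fgb and chr2:10130684-10130863 (minus strand) for Itih2. Nepn at chr10:52391428-52391607 (plus strand) and Epcam at chr17:87635799-87635978 (plus strand), both higher in progenitors, hold neither motif in these bases.
Alb: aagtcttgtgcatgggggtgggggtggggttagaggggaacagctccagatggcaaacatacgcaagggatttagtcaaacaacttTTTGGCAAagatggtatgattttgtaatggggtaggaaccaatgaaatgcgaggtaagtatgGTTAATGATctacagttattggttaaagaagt
Afp: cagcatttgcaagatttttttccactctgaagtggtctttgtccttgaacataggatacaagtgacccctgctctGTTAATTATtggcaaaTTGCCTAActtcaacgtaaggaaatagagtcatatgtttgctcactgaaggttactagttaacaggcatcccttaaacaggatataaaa
Fgb: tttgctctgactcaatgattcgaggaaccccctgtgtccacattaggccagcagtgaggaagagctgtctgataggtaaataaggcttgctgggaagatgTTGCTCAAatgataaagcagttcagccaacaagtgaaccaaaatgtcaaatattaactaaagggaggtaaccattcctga
Itih2: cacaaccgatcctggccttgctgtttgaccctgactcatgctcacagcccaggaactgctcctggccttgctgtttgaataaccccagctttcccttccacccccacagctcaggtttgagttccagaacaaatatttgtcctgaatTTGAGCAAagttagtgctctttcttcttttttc
Nepn: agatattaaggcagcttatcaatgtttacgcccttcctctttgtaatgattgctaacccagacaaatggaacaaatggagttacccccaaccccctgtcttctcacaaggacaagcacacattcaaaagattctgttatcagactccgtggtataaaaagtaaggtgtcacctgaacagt
Epcam: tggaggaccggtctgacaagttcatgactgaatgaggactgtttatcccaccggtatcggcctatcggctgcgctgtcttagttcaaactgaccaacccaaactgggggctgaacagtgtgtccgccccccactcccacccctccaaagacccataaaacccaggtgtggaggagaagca
The HNF1 match of Alb lies 32 to 24 bases before the start site and that of Afp 105 to 97 bases before it, and the latter overlaps a homeodomain match (TAATTA). Windows from 250 bases before to 50 after the start were searched for the top 20 genes in each direction, of which 18 higher and 17 lower genes had an entry. C/EBP letters were found for 9 of the 18 higher genes (Apoa2, Afp, Fgb, Itih2, Alb, Serpinc1, Serpina1a, Rbp4 and Fga), for 0 of the 17 lower ones and for 12.2% of 27025 genes. HNF1 letters were found for 3 (Afp, Alb and Fga), 0 and 0.940% in the same order. The C/EBP matches of Serpinc1 and Serpina1a lie after the start site. Those of Apoa2 lie only before another listed start, in a window from chr1:171221314, upstream of the gene model given above. The share over all genes counts every listed window in the same way. The FOXA motif TGTTTAC was found for 3 higher genes and for Nepn among the lower ones, against 4.05% of genes. GATA letters (AGATAA) were found for 2 and 2 (12.7%), the forward TATA box (TATAAA) for 4 and 1 (9.77%), and the HNF4 letters CAAAGTCCA for 0 and 0 (0.555%). For Apoa1, Apom, Fgg and Serpind1, also among the higher genes, none of these motifs was found in the windows searched. A match is a description of these letters and not a binding site.

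A gene was counted as higher or lower where its mean log2 value in hepatoblasts differed by at least 2 from the progenitors of plate 2A and from those of plate 2B, each taken alone. Of 17028 genes with a value in a compared cell, 409 were higher in hepatoblasts (2.4%) and 1292 were lower (7.59%). Among the 8240 genes with a mean of at least 1 these were 4.96% and 15.7%. List counts are read beside both pairs of shares. The median difference of the 8240 genes was -0.90. Differences are read beside this value, though list medians also cover members with a mean under 1. The direction of this median depended on the summary: as a log2 ratio of linear means the median was 0.50, with 1599 genes higher and 1378 lower, and as a difference of medians over cells it was 0. It also moved with the scaling: median-of-ratios size factors gave 216 genes higher and 1962 lower with a median of -1.39, and scaling by total reads gave 260 and 1468 with -1.09. Genes higher in hepatoblasts were detected in a median of 87.0% of hepatoblasts and 50% of progenitors, and 51 of them were 0 in every progenitor. Genes lower in hepatoblasts were detected in a median of 15.2% of hepatoblasts and 67.9% of progenitors, and 124 were 0 in every hepatoblast.

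**Figure D2:**
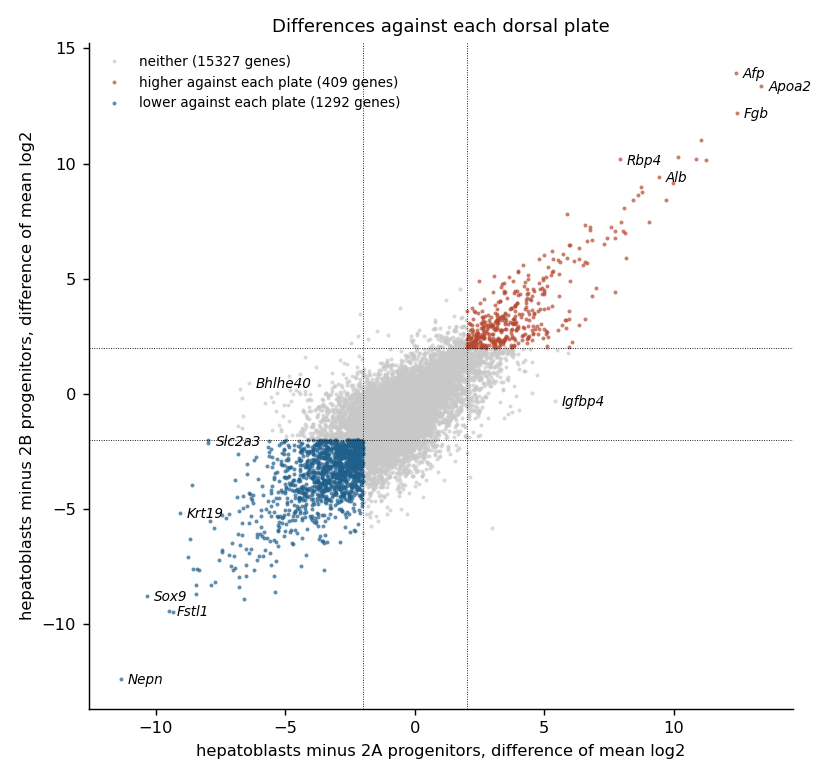
Difference of mean log2(normalized reads + 1) between hepatoblasts and the progenitors of plate 2A (horizontal) or plate 2B (vertical), 1 point a gene; dotted lines mark differences of 2 in either direction. The 409 higher and 1292 lower genes lie beyond the lines on both axes, while genes such as Bhlhe40 and Igfbp4 differ from 1 plate only.

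Plasma proteins led the higher side. Of 17 measured genes for plasma carriers and transport proteins 12 were higher and 1 was lower, against 2.4% and 7.59% of all genes, and the median difference was 3.19 (3.17 against plate 2A, 3.23 against plate 2B). It was 6.59 with linear means and 0 with medians over cells. The list holds Afp, on which the hepatoblasts were chosen; without it 11 of 16 were higher and 1 lower, with a median of 2.93. Serpina6, which encodes corticosteroid-binding globulin, had a median of 11.32 in hepatoblasts (0 to 13.57, detected in 45 of 46) and was 0 in all progenitors. Trf, the iron carrier transferrin, ran from 7.82 to 11.07 in hepatoblasts (median 9.52) and reached at most 4.62 in progenitors, where 5 of 28 cells had it. Rbp4, the plasma carrier of retinol, was high in every hepatoblast (12.35 to 14.63, median 13.42) but was also detected in 17 of 28 progenitors (median 5.30, up to 10.43). The sides did not overlap for Trf and Rbp4, and the difference of Rbp4 was larger against plate 2B (10.18) than against plate 2A (7.91). Ttr, which carries thyroid hormone and is known from early endoderm, was likewise shared: it had a median of 10.92 in hepatoblasts and was detected in 15 of 28 progenitors at up to 7.64. Alb had a median of 10.24 over all hepatoblasts (up to 13.25) and was not detected in 4 of the 46. The 1 lower member was Vtn, named after its values were seen, which encodes vitronectin. It was detected in 37 of 46 hepatoblasts (median 8.35) and 27 of 28 progenitors (median 9.68), with a difference of -2.21.

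Afp was not absent from the progenitors. It was detected in 8 of 28 (28.6%, 13.2 to 48.7%), 6 of them from plate 2A and 2 from plate 2B, at up to 7.85 against at least 11.60 in hepatoblasts. Fgb and Fgg, fibrinogen chains, were detected in 4 and 7 of the 28 progenitors, at up to 7.72 and 8.18. Low-level liver transcripts were thus found in part of the Pdx1 cells, while Apoa2, Alb, Serpina6, Serpinc1 and Serpind1 were 0 in all 28. They were not particular to these cells: among the remaining dorsal cells, a cell with Pdx1 of 0 had Afp at 7.15 and another had Fgb at 10.67. Apoa2 was found at 7.56 in a further remaining dorsal cell.

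Apolipoprotein and lipid transport genes were higher in 9 of 14 and lower in 0, against 2.4% and 7.59% of all genes. The median difference was 4.55. Apoa1, which encodes apolipoprotein A-I, ran from 7.12 to 13.11 in hepatoblasts (median 11.29) and was detected in 3 of 28 progenitors at up to 4.94. Apom, a small carrier apolipoprotein, ran from 10.36 to 13.77 (median 11.83) and reached at most 6.22 in progenitors. Apoe, a ligand of lipoprotein receptors, was also found in progenitors: it had 11.70 to 14.68 in hepatoblasts and was detected in 15 of 28 progenitors at up to 10.78. These 3 genes did not overlap between the sides. Lpl, which encodes lipoprotein lipase, was detected in 42 of 46 hepatoblasts (median 9.37) and 2 of 28 progenitors. Apob, the large apolipoprotein of hepatic lipoproteins, named after its values were seen, was detected in 6 of 46 hepatoblasts (exact interval 4.94 to 26.3%) and 0 of 28 progenitors, and it did not reach a difference of 2. Apof varied among hepatoblasts, with 25 of 46 cells positive and a median of 7.77 over all of them.

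Clotting and complement genes were higher in 17 of 24 and lower in 0, against 2.4% and 7.59% of all genes. The median difference was 5.25. Fgb, the fibrinogen beta chain, ran from 11.54 to 15.01 in hepatoblasts (median 13.29) without overlap, while Fga, the alpha chain, was detected in 37 of 46 hepatoblasts (median 10.01) and 1 of 28 progenitors. Serpinc1 (antithrombin) and Serpind1 (heparin cofactor II), which inhibit clotting proteases, were each detected in 40 of 46 hepatoblasts, with medians of 9.69 and 9.80. Serpinf2, the inhibitor of plasmin, was found in all 46 hepatoblasts (4.74 to 13.02) and in 14 of 28 progenitors (up to 9.98), so its ranges overlapped. Serpina1a, a protease inhibitor of plasma, was detected in 45 of 46 hepatoblasts and 2 of 28 progenitors, but its reads may be shared with near-identical copies of the gene and its level is uncertain.

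Outside the plasma proteins, the 20 largest higher differences included Reln, Glud1 and Zc3hav1. Reln, a secreted glycoprotein best known from neuronal migration, was detected in 42 of 46 hepatoblasts (median 9.68) and was 0 in all progenitors. Glud1, the mitochondrial glutamate dehydrogenase, ran from 3.21 to 12.78 in hepatoblasts (median 10.92) and was detected in 9 of 28 progenitors. Zc3hav1, an antiviral zinc finger protein, was detected in 39 of 46 hepatoblasts (median 8.95) and in 1 progenitor. Of 19 measured enzymes and transporters of mature liver metabolism 4 were higher and 1 lower, against 2.4% and 7.59% of all genes, with a median difference of 0.81 as deposited, 2.80 with linear means and 0 with medians over cells. The higher ones among those named were Asl, an enzyme of the urea cycle (34 of 46 hepatoblasts), Fabp1, the liver fatty acid binding protein (26 of 46), and Slc2a2, the glucose transporter GLUT2 (17 of 46). Slc2a2 and Fabp1 were 0 in all 28 progenitors. The lower one was Arg1, which encodes the last enzyme of the urea cycle. It was detected in 7 of 46 hepatoblasts at up to 9.03, and in 27 of 28 progenitors with a median of 9.37, a difference of -7.42.

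Of 15 measured transcription factors of the liver 2 were higher and 0 lower, against 2.4% and 7.59% of all genes. The median difference was 0.71, with 0.88 against plate 2A and 0.01 against plate 2B, and 1.65 with linear means and 0 with medians over cells. Hhex, a homeobox gene needed for liver budding, was detected in 29 of 46 hepatoblasts (exact interval 47.5 to 76.8%) and 3 of 28 progenitors, all on plate 2A. Tbx3, a T-box factor of hepatoblasts, was detected in 24 of 46 hepatoblasts (52.2%, 36.9 to 67.1%) and was 0 in all progenitors. Hnf4a, the central regulator of hepatocyte genes, was detected in 26 of 46 hepatoblasts (median 6.34, up to 11.37) and 8 of 28 progenitors (up to 8.21). Its difference was 3.58 against plate 2A and 1.75 against plate 2B, so it did not count as higher. Cebpa, a C/EBP factor, was detected in 11 of 46 hepatoblasts and 0 of 28 progenitors, and Cebpb was 0 in every hepatoblast and progenitor. Foxa3 and Nr5a2 were found on both sides, in 17 and 19 of 46 hepatoblasts and in 15 and 16 of 28 progenitors.

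Of 14 factors known from both organs 0 were higher and 6 lower, against 7.59% of all genes lower. The median over all 14 members, 11 of which had a mean of at least 1, was -1.25, and -0.20 with linear means. That of all genes with such a mean was -0.90. Gata4, a zinc finger factor of early endoderm, was 0 in all 46 hepatoblasts, which allows a share of up to 6.52%, and was detected in 21 of 28 progenitors (median 7.32) and in 9 of the 32 remaining liver-plate cells. Onecut1, also called HNF6, was detected in 6 of 46 and 25 of 28, and Foxa2, a pioneer factor of endoderm, in 13 of 46 and 22 of 28. The related genes did not all follow: Gata6 was detected in 14 of 46 and 10 of 28, Onecut2 in 26 of 46 and 23 of 28, and Onecut3 in 9 of 46 and 1 of 28. Sox4 and Sox11 were the other lower factors, and Sox11 was still present in 34 of 46 hepatoblasts (median 7.34 against 9.46).

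Of 16 pancreatic progenitor factors 0 were higher and 9 lower, against 2.4% and 7.59% of all genes. The median was -2.90 (-2.96 against plate 2A, -2.15 against plate 2B). Without Pdx1, on which the progenitors were chosen, 8 of 15 were lower with a median of -2.88. The homeobox genes Nkx6-2, Nkx2-2, Nkx6-1 and Mnx1 and the bHLH gene Ptf1a were 0 in all 46 hepatoblasts, and so was Pdx1. Within the progenitors they differed in reach: Nkx6-2 was detected in 25 of 28, Nkx2-2 in 16, Nkx6-1 in 11, Ptf1a, a factor of the acinar lineage, in 9, and Mnx1 in 3. Nkx6-1 and Ptf1a, which later mark different domains of the pancreas, were both detected in 5 of 28 cells. Sox9 ran from 6.19 to 12.07 in progenitors (median 10.57), with a mean of 11.19 on plate 2A and 9.63 on plate 2B. Hepatoblasts carried Meis1 in 10 and Hes1 in 26 of 46 cells, so factors with a wider range of tissues were not absent. Endocrine regulators were low on both sides, with 1 of 13 lower (Nkx6-1) and a median of 0. Neurog3, which starts endocrine differentiation, was detected in 2 of 28 progenitors, and of 15 hormone and granule genes 1 was lower (Cpe, 2 of 46 against 15 of 28). The choice of cells with Pyy under 5 bears on these counts. None of 5 early exocrine genes counted, and Spink1, a trypsin inhibitor, was detected in 20 of 46 hepatoblasts and 2 of 28 progenitors.

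Epithelial genes set the sides apart in the other direction. Of 28 genes for adhesion, tight junctions and keratins 22 were lower in hepatoblasts, against 7.59% of all genes, and the median difference was -4.31 (-4.24 against plate 2A, -4.47 against plate 2B). Between the remaining cells of plate 5A and those of the dorsal plates it was -2.69, with 11 of 28 lower and 0 higher. Cldn6, a tight junction protein of embryonic epithelia, ran from 9.13 to 12.01 in progenitors (median 10.91) and was detected in 8 of 46 hepatoblasts, of which the highest had 9.66. Epcam, the epithelial adhesion molecule, ran from 5.97 to 11.12 in progenitors (median 9.79) and was detected in 6 of 46 hepatoblasts (exact interval 4.94 to 26.3%). The 6 hepatoblasts with Epcam and the 5 with Sox9 shared 1 cell. Cldn4 was 0 in all hepatoblasts and was detected in 25 of 28 progenitors, and Krt19, a duct keratin, was detected in 1 of 46 and 25 of 28. Spint1, a protease inhibitor of epithelia, was detected in 3 of 46 and 25 of 28. The list held 1 higher gene, Dlk1, which is known as a hepatoblast surface marker. It was detected in all 46 hepatoblasts (4.42 to 10.14, median 8.99) and in 18 of 28 progenitors (median 4.33), with differences of 5.33 against each plate.

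Basement membrane and integrin genes were lower in 13 of 22 and higher in 0, against 7.59% and 2.4% of all genes. The median was -2.81. Col4a1 and Col4a2, the chains of type IV collagen, were detected in 3 and 2 of 46 hepatoblasts and in 27 and 21 of 28 progenitors. Lamb1, a laminin chain, was detected in 7 of 46 and 23 of 28, and Pxdn, which crosslinks collagen IV, in 4 of 46 and 25 of 28. Sparc, a collagen-binding matrix protein, was detected in 3 of 46 hepatoblasts and 23 of 28 progenitors, yet its mean was 7.31 in the remaining cells of the liver plate.

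**Figure D3:**
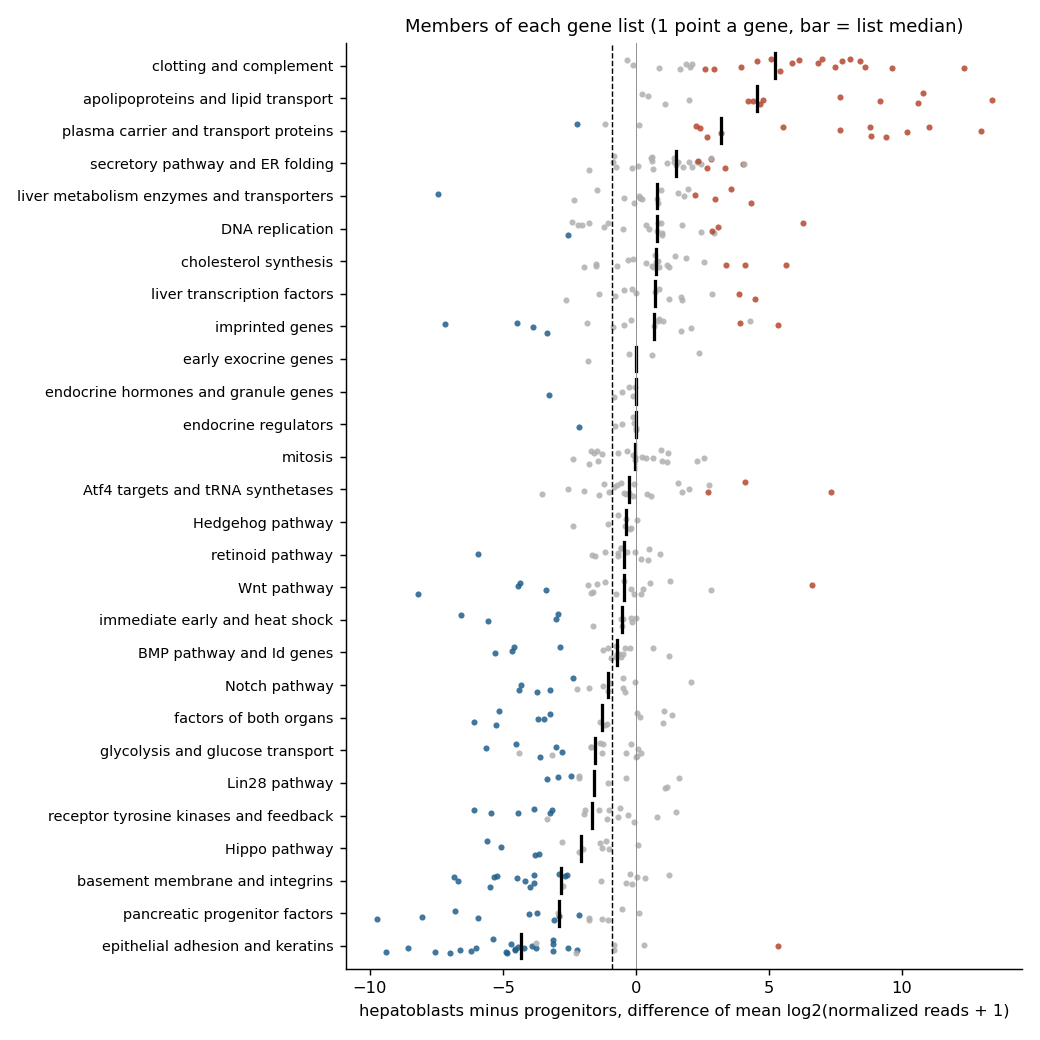
Difference of mean log2 between hepatoblasts and progenitors for the members of each gene list; each point is 1 gene (red, higher against both plates; blue, lower; grey, neither), black bars are list medians, and the dashed line is the median of all genes with a mean of at least 1 (-0.90). The 3 plasma protein lists have medians of 3.19 to 5.25, and the epithelial list lies lowest at -4.31.

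The 20 largest lower differences also held genes for secreted and membrane proteins. Nepn, a secreted leucine-rich protein known from foregut endoderm, was 0 in all 46 hepatoblasts and had a median of 12.35 in progenitors, where 27 of 28 had it (up to 13.81). Fstl1, a secreted glycoprotein that binds TGF-beta family ligands, was detected in 2 of 46 hepatoblasts at up to 3.87 and ran from 7.85 to 11.33 in progenitors (median 9.72), without overlap. Igfbp5 and Igfbp2, which bind insulin-like growth factors, had medians of 8.24 and 9.61 in progenitors and 0 in hepatoblasts, where Igfbp5 was 0 in all cells and Igfbp2 was detected in 7. Sfrp5, a secreted Wnt inhibitor, was detected in 25 of 28 progenitors (median 9.22) and 0 of 46 hepatoblasts, and Rasgrf1, an activator of Ras, likewise in 25 and 0. App, the amyloid precursor, was detected in 27 of 28 progenitors and 0 of 46 hepatoblasts, where 0 allows up to 6.52%. The others of the 20 were Ptpn13, Dpysl5, Igsf9, Peli1, Flrt2, Tmem132a and Nnat, with differences from -8.38 to -7.10.

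The signalling lists are read beside the 7.59% of all genes that were lower and the 15.7% among genes with a mean of at least 1. The median of the latter genes was -0.90, and the medians of the Wnt, BMP, Hedgehog and retinoid lists lay above it. A mean of at least 1 was reached by 14 of 21 Wnt genes, 11 of 19 BMP genes and 15 of 18 receptor tyrosine kinase genes. Only 2 of 9 Hedgehog genes and 5 of 16 retinoid genes reached it, so the medians of these lists rest mostly on genes with a lower mean. As a difference of medians over cells, the medians of all these lists but the Hippo list were 0. In the Notch list 5 of 17 genes were lower and 0 higher (median -1.04): the receptors Notch1 and Notch3 were detected in 4 and 1 of 46 hepatoblasts against 18 and 18 of 28 progenitors, and the ligand Dll1 in 1 of 46 against 15 of 28. In the Wnt list 4 of 21 were lower and 1 higher (median -0.46). The lower ones were Sfrp5 and the receptors Fzd1, Fzd2 and Fzd7. The higher one was Znrf3, a ubiquitin ligase that removes Wnt receptors and is itself a Wnt target, detected in 43 of 46 hepatoblasts (median 10.08) and 12 of 28 progenitors (median 0). Lgr5, the R-spondin receptor, was detected in 25 of 46 hepatoblasts at up to 12.18 and 8 of 28 progenitors, and did not count because its difference was 1.75 against plate 2A. In the BMP list 4 of 19 were lower and 0 higher (median -0.72, and 0 with linear means). They were the ligand Bmp7, Smad5, and the target genes Id1 and Id3, which were each detected in 10 of 46 hepatoblasts and in 23 and 24 of 28 progenitors. Among receptor tyrosine kinases and their feedback genes 6 of 18 were lower and 0 higher (median -1.65). Igf1r, the receptor of insulin-like growth factors, was detected in 6 of 46 and 26 of 28, Erbb2 in 2 and 18, and the FGF-responsive genes Etv5 and Dusp6 in 10 and 12 of 46 against 25 and 23 of 28. In the Hippo list 4 of 12 were lower and 0 higher (median -2.05), with the factor Tead1 at 0 in all hepatoblasts and detected in 18 of 28 progenitors. The Hedgehog list had 0 of 9 in either direction (median -0.36, and -2.09 with linear means). In the retinoid list 1 of 16 was lower: Rara, a retinoic acid receptor, was detected in 5 of 46 hepatoblasts and 26 of 28 progenitors.

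Genes of the secretory pathway had a median difference above that of all genes. Of 27 measured 5 were higher and 0 lower, against 4.96% and 15.7% of genes with a mean of at least 1. The median difference was 1.51 as deposited, 0.79 with scaling by total reads and 0.37 with median-of-ratios scaling. Ssr1, a subunit of the translocon-associated complex, ran from 8.19 to 13.98 in hepatoblasts (median 11.46) and 3.75 to 9.92 in progenitors (median 8.19). Spcs2, a subunit of signal peptidase, ran from 9.82 to 13.90 and from 4.56 to 9.98, and its difference was 2.83 as deposited and 1.61 with median-of-ratios scaling. Hspa5, the main chaperone of the endoplasmic reticulum, was detected in all hepatoblasts (11.30 to 14.76) and 27 of 28 progenitors, with differences of 3.56 against plate 2A and 1.72 against plate 2B. In the remaining cells of the same plates the median of this list was -1.24.

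The metabolic and stress lists that follow are read beside 2.4% of all genes higher and 7.59% lower. Among genes with a mean of at least 1 these shares were 4.96% and 15.7%. Serine synthesis genes were among the higher ones in the list of ATF4 targets, where 3 of 23 were higher and 0 lower. The median of this list was -0.24, with -0.17 against plate 2A and 0.15 against plate 2B, and it was 0.77 with linear means. Psat1, a serine synthesis enzyme, was detected in 43 of 46 hepatoblasts (median 10.31) and 8 of 28 progenitors (median 0), and Phgdh, the first enzyme of that pathway, in 46 of 46 and 23 of 28. The third was Asns, asparagine synthetase (20 of 46 against 5 of 28). In the cholesterol synthesis list 3 of 21 were higher and 0 lower (median 0.76, and 1.48 with linear means and 0 with medians over cells), among them the sterol synthesis enzymes Msmo1, in 31 of 46 hepatoblasts and 7 of 28 progenitors, and Sc5d, in 27 and 8. Glycolysis and glucose transport genes were lower in 5 of 18 and higher in 0, with a median of -1.53 (-0.83 with linear means). The median was -2.09 against plate 2A and -0.93 against plate 2B, and the progenitors of the plates differed from each other by a median of 1.53 in this list. Between the remaining cells of plate 5A and those of the dorsal plates it was -2.50, with 8 of 18 lower and 0 higher. Slc2a1, the glucose transporter GLUT1, ran from 6.24 to 12.30 in progenitors (median 10.43), with means of 10.97 on plate 2A and 8.50 on plate 2B, and was detected in 31 of 46 hepatoblasts (mean 5.50). In the immediate early, heat shock and metallothionein list 4 of 13 were lower, led by Mt1, a metallothionein (9 of 46 against 27 of 28), and Jun (3 of 46 against 23 of 28).

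Cell cycle genes gave no common direction. Of 21 DNA replication genes 3 were higher and 1 lower, against 4.96% and 15.7% of genes with a mean of at least 1. The median was 0.79 as deposited, 0.09 against plate 2B alone and -0.17 with median-of-ratios scaling. Ccne1, the cyclin of entry into S phase, was detected in 37 of 46 hepatoblasts (median 9.18) and 6 of 28 progenitors, and Ccne2 in 26 and 9. Pola1, a DNA polymerase subunit, was the lower one (10 of 46 against 17 of 28), and its difference of -2.55 became 0.22 as a ratio of linear means. In the mitosis list 0 of 21 counted in either direction (median -0.04, and 0.34 with linear means and -0.68 with median-of-ratios scaling), and Cdk1 was detected in 42 of 46 hepatoblasts and 20 of 28 progenitors.

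The imprinted and Lin28 lists are read beside 2.4% of all genes higher and 7.59% lower. Among genes with a mean of at least 1 these shares were 4.96% and 15.7%. Imprinted genes went both ways, with 2 of 17 higher and 4 lower. The median was 0.67 as deposited and -0.51 with median-of-ratios scaling. The higher ones were Dlk1, described above, and Igf2r, the receptor that clears IGF2, detected in all 46 hepatoblasts (5.53 to 11.49) and 22 of 28 progenitors (up to 9.57). Peg3, a zinc finger gene, ran from 12.72 to 14.99 in progenitors (median 13.89) and was lower but detected in 42 of 46 hepatoblasts (median 10.26). Nnat, a small membrane protein, was detected in 5 of 46 and 27 of 28. Mest and Ndn, named after their values were seen, were the others, in 2 and 3 of 46 against 16 and 15 of 28. In the Lin28 list 3 of 10 were lower and 0 higher (median -1.59, -0.30 with medians over cells and 0.19 with linear means), among them Lin28a, the repressor of let-7 processing, in 10 of 46 and 21 of 28. Between the remaining cells of plate 5A and those of the dorsal plates the median of this list was -3.22, with 8 of 10 lower and 0 higher.

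The remaining cells of the same plates were compared in the same way, a choice made after seeing the data, to show what plates 5A and 2A or 2B differ in apart from the chosen cells. Of the 409 higher genes 25 were also higher in the remaining liver-plate cells than in the remaining dorsal cells, 359 counted in neither direction and 25 were lower there. Within plate 5A, 313 of the 409 were also at least 2 higher in hepatoblasts than in the 32 remaining cells. Of the 1292 lower genes 581 were also lower in the remaining cells, 704 counted in neither direction and 7 were higher. Within plate 5A 96 of the 1292 were at least 2 lower in hepatoblasts. The 32 remaining cells there are mostly of other types: 26 carried at least 3 markers of 1 such type. They had a median of 3 of the 28 epithelial genes, so few epithelial genes could be lower in hepatoblasts by this comparison. Over all 20474 genes of the table the remaining cells had 94 higher and 1970 lower. The 25 and 581 genes that went the same way in both comparisons are read beside these counts. The remaining liver-plate cells had a median of 2303 detected genes against 5036.5 in the remaining dorsal cells. For the lower genes, and for the 25 higher ones shared with the remaining cells, a difference of plate and one of cell type cannot be told apart by this comparison. Arg1, for example, had a mean of 0.02 in the remaining liver-plate cells and 7.59 in the remaining dorsal cells, and Igfbp2 had 1.23 and 7.75.

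Of the 96 lower genes that were also lower than in the rest of the liver plate, 3 of the named ones serve as examples. Fstl1 had a mean of 7.52 there and was detected in 24 of 32 cells, against 2 of 46 hepatoblasts. Igfbp5 was detected in 15 of 32 (mean 5.18) against 0 of 46, and Flrt2, a membrane protein of the fibronectin-leucine-rich family, in 18 of 32 (mean 5.40) against 1 of 46. These 3 were thus low in hepatoblasts both against the progenitors and against the other cells of their own plate.

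**Figure D4:**
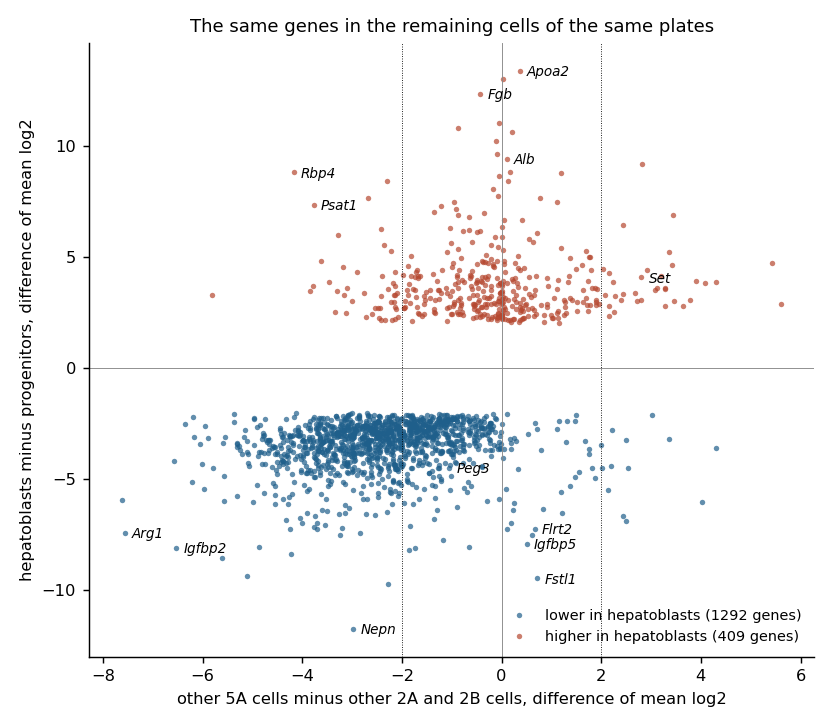
The 409 genes higher and 1292 genes lower in hepatoblasts, plotted by the same difference in the remaining cells of the same plates (horizontal, mean log2 of the 32 other cells of 5A minus that of the 58 other cells of 2A and 2B) and by hepatoblasts minus progenitors (vertical). Apoa2, Alb and Fgb lie near 0 on the horizontal axis, Arg1 and Igfbp2 lie far to the left, and Fstl1, Igfbp5 and Flrt2 lie slightly to the right.

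Genes whose ranges did not overlap were few. There were 24 with every hepatoblast above every progenitor (0.141% of 17028) and 5 with every hepatoblast below (0.0294%). The former numbered 12 and 11 with scaling by total reads and by median of ratios, and 15 with Afp of at least 5, which adds 1 hepatoblast; the latter numbered 8, 8 and 3. The 24 included Afp, on which the hepatoblasts were chosen, and Apoa1, Apoa2, Apoe, Apom, Fgb, Fgg, Rbp4, Trf and Ttr, but also Set and Sub1, which encode chromatin proteins. Set ran from 10.38 to 13.62 in hepatoblasts and 5.54 to 8.64 in progenitors, and it was 2.80 higher in the remaining liver-plate cells than in the remaining dorsal cells. Sub1 had means of 10.51 and 8.27 in those cells, so these genes differed between the plates beyond the chosen cells as well. The lower side held Pdx1, on which the progenitors were chosen, with Fstl1, Igfbp5 and, named after their values were seen, Rps15a-ps8 and ENSMUSG00000106106.

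The lists were also counted cell by cell. Of 54 plasma protein genes (Afp left out) each hepatoblast had 22 to 42 detected, with a median of 31.5, and each progenitor 2 to 15, with a median of 7 (6 on plate 2A, 8 on plate 2B). The 32 remaining liver-plate cells had a median of 2 and at most 12. Of 28 epithelial genes hepatoblasts had 1 to 15 (median 6) and progenitors 13 to 26 (median 21), so these ranges overlapped slightly. Of 15 pancreatic factors (Pdx1 left out) hepatoblasts had 0 to 3 and progenitors 5 to 12. The number of plasma genes thus separated the sides without overlap, and so did that of pancreatic factors. This only describes the cells, since they were chosen on Afp or Pdx1 and the lists were chosen with earlier results of these data known. The 58 remaining dorsal cells had 1 to 8 pancreatic factors (median 5) and 4 to 25 epithelial genes (median 13). Both counts overlapped those of the progenitors and so are not particular to them. Of the plasma genes the remaining dorsal cells had 0 to 14 (median 4).

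**Figure D5:**
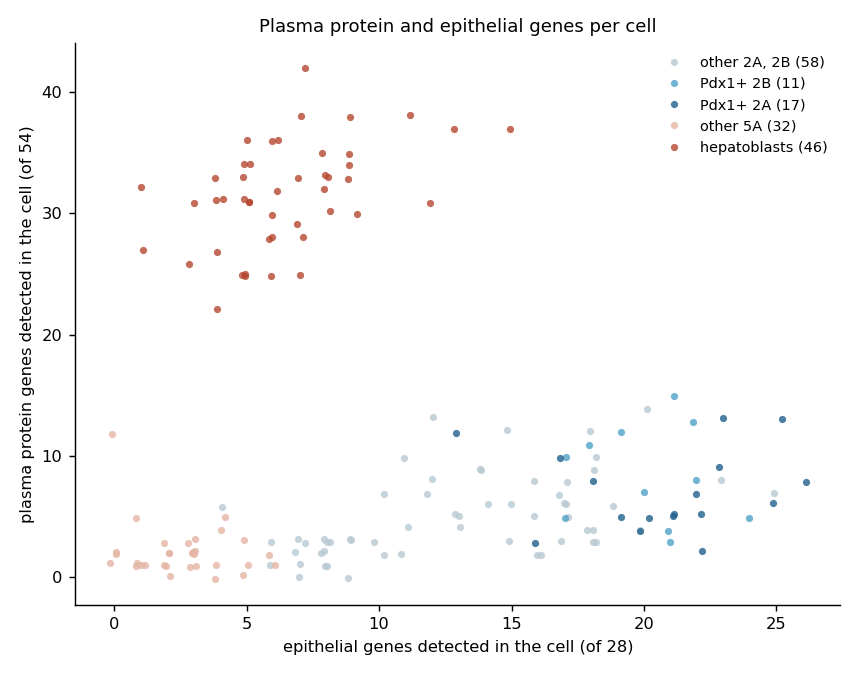
Number of plasma protein genes (of 54, vertical) and epithelial genes (of 28, horizontal) detected in each cell, with a small scatter added to separate cells. Hepatoblasts have 22 to 42 plasma genes, progenitors at most 15, and the remaining cells of plate 5A at most 12.

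Hepatoblasts varied among themselves in genes that some cells carried at a high level and others not at all. Among genes detected in 25 to 75% of hepatoblasts, those with the largest SD were Maob, a mitochondrial monoamine oxidase (28 of 46 cells, 5.93 ± 4.94), Lgr5 (25 cells, 5.28 ± 4.81), Copb2, Cpsf3, Car4, Shmt2, Rbbp9 and Apof. Among progenitors they were Cdc20, an activator of the anaphase complex (16 of 28 cells, 5.31 ± 4.85), Ube2c, Plk1, Top2a, Tpx2, Bhlhe40, Spon1 and Adamts1. The mitosis list varied among cells on both sides, with 1 to 20 of 21 genes detected in hepatoblasts (median 13) and 1 to 21 in progenitors (median 14). Spon1 and Adamts1, which encode matrix proteins, were 0 in all 46 hepatoblasts and were detected in 19 and 18 of 28 progenitors.

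The progenitors of the 2 dorsal plates also differed from each other. Of 15618 genes with a value in a progenitor 1234 (7.9%) differed by at least 2 between the plates, 429 higher on plate 2A and 805 lower. Genes far higher on plate 2A were Stc1, a secreted hormone (15 of 17 cells against 0 of 11), Bhlhe40, a transcriptional repressor (13 of 17 against 0 of 11), H2-Ab1, Calcoco1, and the glycolytic genes Slc2a3 (17 of 17 against 5 of 11) and Pfkp. Genes far lower on 2A were Chmp6, Igfbp4 (4 of 17 against 11 of 11), Pigo, Lmnb1, Acer2 and Isyna1. Hepatoblasts stood near 2B for Stc1 (0.22 against 2B, -6.74 against 2A) and Bhlhe40 (0.47 and -6.41). For plasma proteins and epithelial genes the plates gave nearly the same value, with list medians of 3.17 and 3.23, and of -4.24 and -4.47.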

How the data were processed

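The submitters' processing notes name GRCm38, Cuffdiff 2.2.1, Cufflinks and STAR 2.5.3 without their roles. How reads were counted, scaled and filtered is not given in the sources. The authors deposited 1 table of log2 values for 20474 genes and 346 cells; 1647510 of 1647530 values are within 0.01 of whole reads after undoing log2(reads / size factor + 1), so the deposited values are read as that, with empty entries set to 0.

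For each gene the mean over cells of the log2 values was compared between hepatoblasts and progenitors, with no test. A gene is detected from 5 normalized reads on, 95% intervals are Clopper-Pearson (exact), and 0 cells allow 3 of n. Members and lists were chosen with earlier results of these data known. Named genes are the 20 largest in each direction (detected in at least 50% of cells of the higher side, leaving out predicted, mitochondrial and ribosomal protein genes and Xist and Y-linked ones), the 5 largest of each list, all members of the transcription factor lists, the markers, the 8 most variable on each side, the 6 most different between dorsal plates and up to 10 without overlap. List medians cover every member in the table. Counts without Afp or Pdx1 were added after seeing the data. A few named genes are not reported here.

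The settings varied were the pseudocount (0.1 and 10), linear means or medians over cells, 2 other scalings, thinning, each dorsal plate alone, other limits for choosing cells, filters and thresholds. Steps were tested on simulated data. Promoter sequences are from RefSeq (GRCm38.p6), and names matched GENCODE M21 for 20419 of 20474 rows. Tools were python 3.11.15, numpy 2.4.6, pandas 2.3.3, scipy 1.17.1 and matplotlib 3.10.9.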

Additional observations from a re-analysis of the deposited data

How the results depend on the processing

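Of 18 alternatives 16 were run on single genes (all but the other thresholds), and there the 123 named genes that counted as higher or lower gave 1968 differences, of which 1964 kept their sign, 3 were 0 as differences of medians (Slc2a2, Rfx6 and Nkx6-1) and 1 turned direction, Pola1, at 0.22 as a ratio of linear means. Values that moved by more than the spread between cells numbered 145. The number of genes higher in hepatoblasts (409) was 646 with a pseudocount of 0.1, 1599 with linear means, 260 with total-read scaling, 216 with median-of-ratios scaling, 813 with plate 2A alone, and 1068 and 180 at thresholds of 1 and 3. The number lower (1292) was 2496 and 276 with pseudocounts of 0.1 and 10, 1962 with median-of-ratios scaling, 2106 and 2460 with plate 2A or 2B alone, and 3109 and 501 at thresholds of 1 and 3. Genes without overlap that were higher (24) numbered 12 and 11 with total-read and median-of-ratios scaling and 15 with Afp of at least 5. Those lower (5) numbered 8 with each of these scalings, 9 and 16 with plate 2A or 2B alone, 3 with Afp of at least 5, 10 with Pdx1 of at least 8 and 3 with no rule on Pyy.

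The median of all genes (-0.90) was -1.50 and -0.35 with pseudocounts of 0.1 and 10, 0.50 with linear means, 0 with medians over cells and -1.39 with median-of-ratios scaling. The plasma carrier median (3.19) was 4.33 and 2.01 with those pseudocounts, 6.59 with linear means, 0 with medians over cells and 6.61 among genes with a mean of at least 1. The pancreatic factor median (-2.90) was -4.28 and -1.41 with the pseudocounts, -4.34 with linear means, -2.15 with plate 2B alone and -3.70 with that filter. Genes that differ between the dorsal plates (1234) numbered 2921 and 176 with the pseudocounts, 2992 with linear means, 2451 with medians, 2119 with Pdx1 of at least 8, and 4459 and 292 at thresholds of 1 and 3. The cause of these moves was not tested. No paired analysis was possible because each side is 1 sample of unnumbered cells and the results come from no test. Low genes in progenitors rest on 568780 to 1250790 reads per cell.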
